A study of Homo sapiens with 12 samples.

Results

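This account follows 36 genes of glucose use: the carriers of glucose and lactate, the enzymes of glycolysis with their regulators, and the enzymes of the pentose phosphate pathway. The genes were picked by name for their place in these pathways, with earlier results of these data known. All 36 were found among the 60668 genes of the count tables and had enough reads to be tested. RNA came from MOLM-13, an established cell line from an acute myeloid leukaemia that holds an MLL fusion gene and an activated FLT3 receptor. Cells of this single line were kept for 8 days with the solvent DMSO, with the FLT3 kinase inhibitor gilteritinib, with MI-3454, which blocks the contact of menin with MLL1, or with gilteritinib and MI-3454 together (the combination). Each of the 4 groups had 3 libraries from cultures seeded in parallel, so p-values measure the spread between such cultures of one line. The sources used here give no doses. The design sets each treatment against DMSO, and the same 3 DMSO libraries serve all of these comparisons.

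Glycolysis turns a glucose molecule into a pair of pyruvate molecules, which are either reduced to lactate and exported or oxidised in mitochondria after the pyruvate dehydrogenase complex has converted them to acetyl-CoA. The pentose phosphate pathway branches off at glucose 6-phosphate and yields NADPH and the ribose needed for nucleotides. In leukaemic and other fast-dividing blood cells, many of these genes are known targets of MYC and of the hypoxia-inducible factor HIF, and several steps have isozymes that differ in tissue and regulation.

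Libraries held 6.47 to 12.1 M gene counts, with combination 3 the smallest and gilteritinib 1 the largest. The 36 genes took 1.35% to 1.58% of gene counts with DMSO, gilteritinib and MI-3454. With the combination they took 0.980% to 1.13%. Reads placed outside annotated exons were 15.6% to 20.4% of uniquely placed reads with DMSO and gilteritinib, 17.4% to 25.5% with MI-3454 and 28.5% to 36.5% with the combination. Combination 3 had the most. Markers of the myeloid lineage were present, with 9 of 10 counted in every group, whereas CD34 had 0 counts in all 12 libraries, which allows up to 3 counts in each. Their summed level ran from 3027 to 3321 CPM with DMSO, from 4465 to 4873 with gilteritinib, from 12809.6 to 13939 with MI-3454 and from 17102 to 19034 with the combination (CPM, counts per 1000000 gene counts after TMM scaling). Markers of monocyte maturation summed to between 118.9 and 119.2 CPM with DMSO, 155 and 164 with gilteritinib, 472 and 546 with MI-3454 and 716 and 724 with the combination, and neutrophil markers to between 282 and 343, 386 and 438, 571 and 735, and 891 and 928. Over all groups, the lists for T and NK cells (38.4 to 74.1 CPM), B cells (0.425 to 1.89) and epithelium (5.25 to 15.0) stayed low. The stromal list was higher in each treated group than with DMSO. It ran from 166 to 198 CPM with DMSO, 222 to 242 with gilteritinib, 294 to 296 with MI-3454 and 479 to 494 with the combination. Some genes of T cells (CD3G, CD2), B cells (MS4A1), red cells (HBB), epithelium (KRT19, CDH1, KRT5) and stroma (COL3A1, PDGFRA, KDR) were at 0 in every group. Other markers of each list had counts. CD3D, TRAC, NKG7 and KLRD1 of the 8 T and NK markers had counts in every group. So did COL1A1, PDGFRB and PECAM1 of the 8 stromal markers. In each group 1 library had the highest share of RN7SL1 RNA (DMSO 2, gilteritinib 2, MI-3454 3 and combination 1), and results were also computed without these 4. The part of maturation, depth and reads outside exons in the changes below was not tested.

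The combination lowered most of these genes. Against DMSO, 21 of the 36 fell and 7 rose, at an edgeR quasi-likelihood adjusted p under 0.05 over all 13972 tested genes, where 28.4% of all genes fell and 29.2% rose. The median log2 fold change of the 36 was -0.50, against -0.00 for all tested genes, and 11 fell and 3 rose at least 2-fold. The share of all tested genes past 2-fold was not computed. The genes that fell were SLC2A1, SLC2A3, SLC16A1, SLC16A3, HK2, PFKL, PFKM, PFKP, PFKFB4, GPI, ALDOC, TPI1, GAPDH, PGK1, PGAM1, ENO1, ENO2, LDHA, LDHB, PDK1 and RPIA. Those that rose were HK1, HK3, PFKFB3, FBP1, PDK3, TKT and TALDO1. Summed over the 10 genes of the chain from GPI to PKM, levels ran from 5919 to 7468 CPM with the combination and from 9728 to 12334 CPM with DMSO, without overlap. In RNA from whole cultures, fewer cells that express a gene and less of its RNA per cell cannot be told apart. Of the 28 calls, 27 held when each library was left out in turn and under all other settings tried, and SLC2A1 lost its call without combination 3 (adjusted p = 0.0907).

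Fewer of the genes were called with each single agent. With MI-3454, 11 fell and 5 rose, where 8.95% of all tested genes fell and 10.1% rose, and the median was -0.16 against 0.00 for all genes. With gilteritinib, 11 fell and 2 rose, where 8.18% of all tested genes fell and 6.92% rose, and the median was -0.24 against -0.00. SLC2A3, SLC16A1, SLC16A3, HK2, PFKP, PFKFB4, ALDOC, ENO2 and LDHA fell in all 3 comparisons with DMSO, HK3 and TALDO1 rose in all 3, and PFKFB2, ALDOA, PKM, PGLS, PGD and RPE were called in none. For all tested genes, the share called in all 3 or in none was not computed. In the gilteritinib comparison, deviations of same-numbered libraries correlated at 0.14, 0.39 and 0.11, but gilteritinib 1 correlated more with DMSO 3 (0.21). The pairing by number is thus uncertain. With that number as a block, 21 members fell and 4 rose (17.6% and 17.7% of all genes, 35.3% in all). The members added by the block were HK1, GPI, PFKM, PFKFB3, PGK1, ENO1, LDHB, PGD, RPE and FBP1, called lower, and PDHA1 and PGLS, called higher. The MI-3454 counts depended on single libraries: 2 rose without DMSO 1 or DMSO 3 and 3 without MI-3454 1, and 7 fell without DMSO 1 and 6 without MI-3454 2. The gilteritinib count of falls was 7 without DMSO 1 or gilteritinib 3 and 6 without gilteritinib 1, and 1 member rose without DMSO 1, DMSO 3, gilteritinib 1, gilteritinib 2 or gilteritinib 3.

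**Figure D1:**
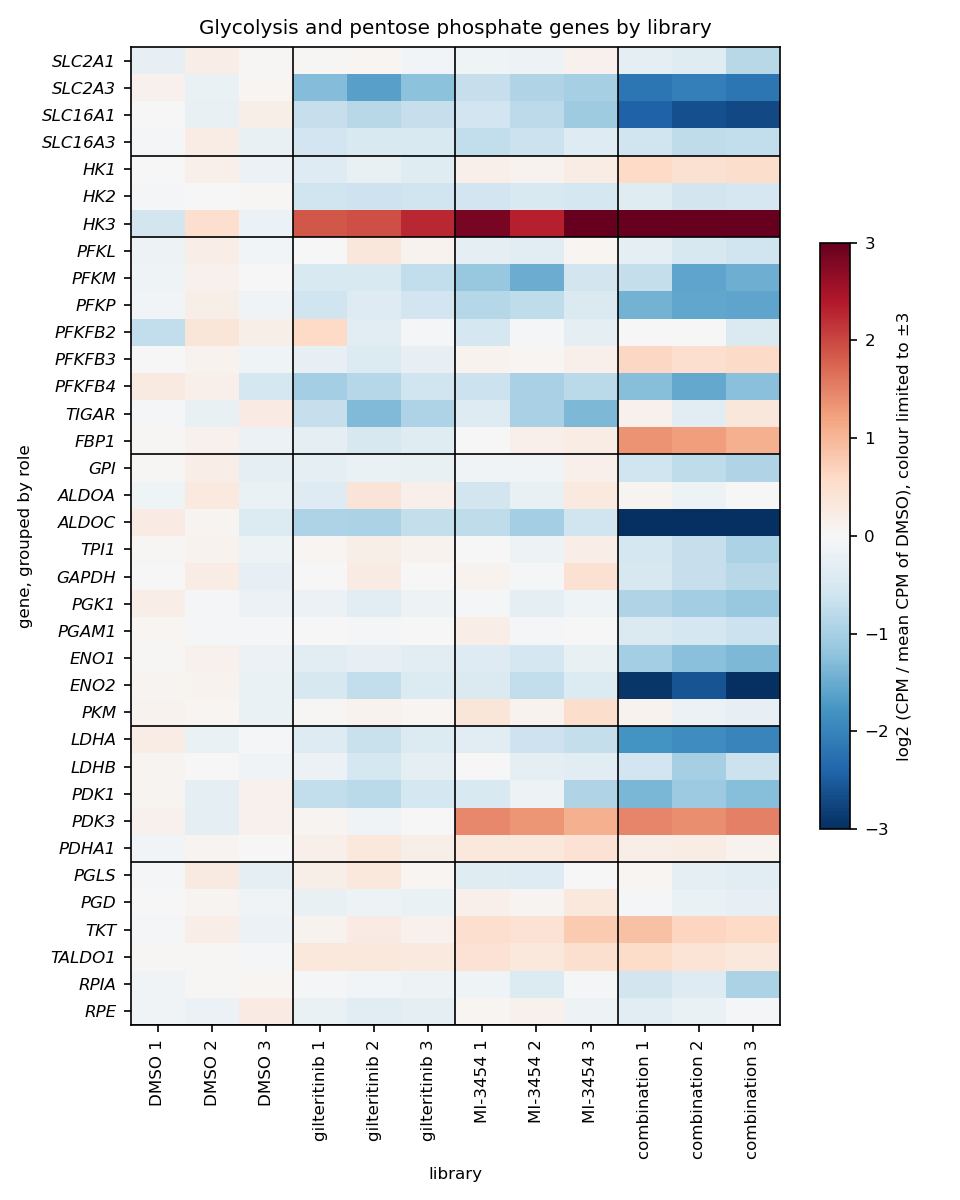
Level of each of the 36 genes (rows, grouped by role) in each of the 12 libraries (columns), as log2 of CPM over the mean CPM of DMSO, with colours limited to ±3. The 3 combination libraries are darkest blue for ALDOC (4.11 to 7.72 CPM against 125 to 194 with DMSO) and darkest red for HK3 (17.7 to 22.9 against 0.998 to 2.08).

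**Figure D2:**
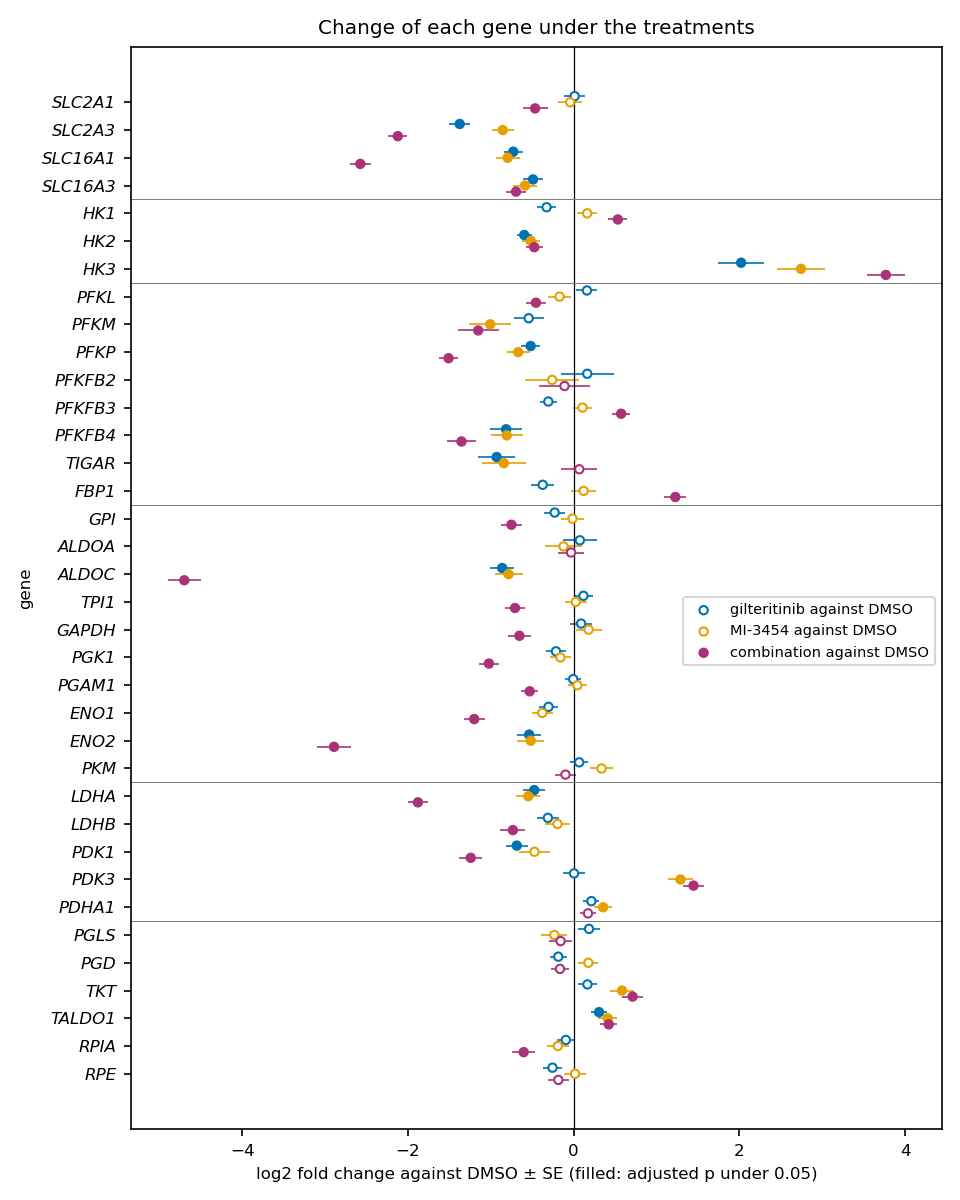
Log2 fold change ± SE against DMSO for each gene (rows) under gilteritinib (blue), MI-3454 (orange) and the combination (purple), with filled points for an edgeR adjusted p under 0.05. With the combination 21 points are filled on the left and 7 on the right of 0.

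The bases before the transcription start of members that moved are shown for genes on either side of the pattern, with matches to the MYC-type E-box CACGTG and to the core of the hypoxia response element ACGTG in capitals. Sequences are from RefSeq (GRCh38.p14), whose table matched 33 of the 36 genes, and are read 5′ to 3′ on the gene's own strand from the 250 bases before the start, leaving out bases that GENCODE 29 places in an exon. LDHA (chr11:18394313-18394387, plus strand), GAPDH (chr12:6535142-6535263, plus strand), PGK1 (chrX:78103998-78104173, plus strand) and PFKP (chr10:3067720-3067969, plus strand) fell with the combination, and HK3 (chr5:176899347-176899596, minus strand) and FBP1 (chr9:94639519-94639768, minus strand) rose.
LDHA: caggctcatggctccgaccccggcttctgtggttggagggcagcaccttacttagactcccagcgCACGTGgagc
GAPDH: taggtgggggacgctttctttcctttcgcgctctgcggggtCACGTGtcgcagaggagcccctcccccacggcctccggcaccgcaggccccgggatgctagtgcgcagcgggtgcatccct
PGK1: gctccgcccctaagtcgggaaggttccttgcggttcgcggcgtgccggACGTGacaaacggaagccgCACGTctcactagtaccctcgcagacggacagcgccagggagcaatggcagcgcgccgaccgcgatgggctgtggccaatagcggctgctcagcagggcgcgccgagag
PFKP: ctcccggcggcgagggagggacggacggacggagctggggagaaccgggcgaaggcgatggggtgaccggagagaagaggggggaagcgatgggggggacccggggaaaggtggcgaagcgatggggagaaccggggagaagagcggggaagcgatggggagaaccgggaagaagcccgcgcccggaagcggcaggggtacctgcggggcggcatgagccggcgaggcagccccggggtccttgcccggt
HK3: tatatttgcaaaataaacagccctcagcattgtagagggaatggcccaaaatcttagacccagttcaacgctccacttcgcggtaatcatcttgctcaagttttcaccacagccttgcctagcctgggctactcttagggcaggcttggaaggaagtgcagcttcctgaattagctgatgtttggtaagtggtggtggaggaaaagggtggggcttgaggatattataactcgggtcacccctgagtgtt
FBP1: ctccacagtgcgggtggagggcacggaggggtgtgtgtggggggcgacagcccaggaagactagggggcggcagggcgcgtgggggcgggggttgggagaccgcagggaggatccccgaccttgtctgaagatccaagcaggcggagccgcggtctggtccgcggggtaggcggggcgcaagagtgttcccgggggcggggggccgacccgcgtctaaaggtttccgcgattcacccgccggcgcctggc
LDHA holds an E-box at -185 from the start here and another, with an ACGTG core, in bases that are not shown. GAPDH holds an E-box at -81, PGK1 holds ACGTG cores at -202 and -183, and PFKP, HK3 and FBP1 hold neither motif. In windows of 300 bases (250 before to 50 after the start) searched on both strands, CACGTG occurred in 3 of the 19 matched members that fell (ALDOC, GAPDH and LDHA), in 0 of 7 that rose and in 0 of 7 that were not called, and in 7.43% of the 27305 promoters of the table. The shorter ACGTG, which every E-box contains, occurred in 7 of 19, 1 of 7 and 3 of 7, and in 21.6% of all promoters. A match describes the letters of the window and does not show binding.

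Both glucose carriers and both lactate carriers fell with the combination. SLC2A3 encodes the high-affinity glucose transporter GLUT3 of blood cells and neurons (ENSG00000059804.16, chromosome 12, 7919230 to 7936275 of GRCh38), and was measured at 225, 179.6 and 213 CPM with DMSO and 83.2, 66.9 and 87.6 with gilteritinib. The MI-3454 libraries gave 127, 111 and 103 and the combination libraries 45.8, 49.8 and 46.1. No 2 groups overlapped, and the order was DMSO, MI-3454, gilteritinib, combination. The log2 change was -0.86 ± 0.13 (SE) with MI-3454, -1.38 ± 0.13 with gilteritinib and -2.12 ± 0.12 with the combination (edgeR adjusted p = 0.000624, 1.75e-05 and 1.26e-10). SLC2A1, the widely expressed glucose transporter GLUT1, had means of 37.6 ± 5.70 CPM (SD, n = 3) with DMSO, 37.9 ± 1.92 with gilteritinib, 36.5 ± 4.16 with MI-3454 and 27.0 ± 5.11 with the combination. Its combination libraries lay below all DMSO libraries at 30.5, 29.3 and 21.1 CPM, a log2 change of -0.46 ± 0.15 (adjusted p = 0.0142, and 0.0907 without combination 3).

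SLC16A1 encodes the monocarboxylate transporter MCT1, which moves lactate in either direction with a proton (ENSG00000155380.11, chromosome 1, 112911847 to 112957013). It was measured at 125, 106 and 138 CPM with DMSO and 76.4, 68.9 and 76.5 with gilteritinib. Under MI-3454 the values were 81.9, 71.6 and 58.4, against 23.0, 19.6 and 18.7 under the combination. Both single-agent groups lay below DMSO and the combination lay far below both, with log2 changes of -0.73 ± 0.11, -0.80 ± 0.15 and -2.58 ± 0.13 with gilteritinib, MI-3454 and the combination (edgeR adjusted p = 0.00102, 0.00234 and 5.68e-11). SLC16A3, the lactate exporter MCT4 of glycolytic cells, fell under all 3 treatments, from 498 ± 78.1 CPM with DMSO to 355 ± 16.8 with gilteritinib, 332 ± 44.8 with MI-3454 and 308 ± 20.3 with the combination. Its log2 changes were -0.49 ± 0.12, -0.59 ± 0.15 and -0.70 ± 0.12. The combination differed from MI-3454 by -0.10 ± 0.11 and from gilteritinib by -0.20 ± 0.09, neither past the test (edgeR adjusted p = 0.525 and 0.0665). The difference from gilteritinib was called with DESeq2, without the low-count filter, without combination 1 and without the 4 libraries richest in RN7SL1 (adjusted p from 0.000754 to 0.0468). Single-agent calls of SLC16A3 were lost in the MI-3454 comparison without MI-3454 1 or MI-3454 2 and with the replicate block (adjusted p from 0.0637 to 0.0824) and in the gilteritinib comparison without DMSO 1, gilteritinib 1 or gilteritinib 3 (adjusted p from 0.0627 to 0.0947). SLC16A3 shares 482 exon bases with CSNK1D on the other strand, and the strand setting of the counts is not known, so its level is uncertain.

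The hexokinases, which trap glucose as glucose 6-phosphate, moved apart. HK2, the inducible isozyme on the mitochondrial surface (ENSG00000159399.9, chromosome 2, 74833981 to 74893359), was measured at 144, 149 and 150.2 CPM with DMSO and 98.1, 96.8 and 98.1 with gilteritinib. MI-3454 gave 99.9, 108 and 102 CPM and the combination 114, 100.1 and 104. All 9 treated libraries lay below all DMSO libraries, at log2 changes of -0.60 ± 0.09, -0.52 ± 0.11 and -0.48 ± 0.10 with gilteritinib, MI-3454 and the combination (edgeR adjusted p = 0.000795, 0.00476 and 0.000756). The combination was not called against either single agent, except against gilteritinib with total-count scaling (0.25, adjusted p = 0.0165). HK3, an isozyme of mature myeloid cells (ENSG00000160883.11, chromosome 5, 176880869 to 176899332), started low: it was measured at 0.998, 2.08 and 1.29 CPM with DMSO and 5.34, 5.58 and 7.03 with gilteritinib. With MI-3454 it stood at 10.5, 7.398 and 11.7, and with the combination at 19.3, 22.9 and 17.7. No treated group overlapped DMSO or another treated group. The log2 rise was 2.02 ± 0.27 with gilteritinib, 2.74 ± 0.30 with MI-3454 and 3.77 ± 0.23 with the combination (edgeR adjusted p = 0.000379, 3.69e-05 and 6.75e-10). The last was a 13.6-fold rise, the largest of the 36 genes. HK1, the housekeeping isozyme, was measured at 52.7, 59.0 and 46.7 CPM with DMSO and 40.1, 45.1 and 41.3 with gilteritinib. The MI-3454 libraries gave 59.0, 56.5 and 61.9 and the combination libraries 80.2, 72.6 and 76.6. It rose with the combination alone among the 3 comparisons with DMSO (0.53 ± 0.11, adjusted p = 0.000736). It was higher there than with MI-3454 (0.38 ± 0.09, adjusted p = 0.0103) and gilteritinib (0.87 ± 0.08, adjusted p = 7.57e-07). With gilteritinib all HK1 values lay below DMSO, at -0.33 ± 0.11 (adjusted p = 0.077), and with the replicate block this was called lower (-0.32 ± 0.09, adjusted p = 0.00181).

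Phosphofructokinase, the committed step of glycolysis, is built from the subunits PFKL, PFKM and PFKP, and all 3 genes fell with the combination. PFKP, the platelet-type subunit (ENSG00000067057.17, chromosome 10, 3066333 to 3137712), was measured at 158, 190.4 and 156 CPM with DMSO and 111, 128 and 114 with gilteritinib. Under MI-3454 the values were 92.4, 99.97 and 125, against 63.2, 57.5 and 56.1 under the combination. The combination lay below both single agents and these below DMSO, at -1.51 ± 0.11, -0.67 ± 0.14 with MI-3454 and -0.52 ± 0.11 with gilteritinib (edgeR adjusted p = 7.73e-09, 0.00534 and 0.00814). PFKL, the liver-type subunit, fell with the combination from 371 ± 47.7 to 271 ± 29.3 CPM (-0.46 ± 0.12, adjusted p = 0.00402) and was not called with either agent. PFKM, the muscle-type subunit, had low levels of 6.65 ± 0.609 CPM with DMSO and 2.90 ± 1.02 with the combination (-1.15 ± 0.25, adjusted p = 0.000812). It also fell with MI-3454, to 3.31 ± 1.13 CPM (-1.01 ± 0.25, edgeR adjusted p = 0.0153). It shares 628 exon bases with SENP1 on the other strand. Calls were lost with MI-3454 for PFKM without MI-3454 1 or MI-3454 2 (adjusted p from 0.0601 to 0.0633) and with gilteritinib for PFKP without gilteritinib 1 (adjusted p = 0.051).

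The bifunctional PFKFB enzymes make or remove fructose 2,6-bisphosphate, the activator of phosphofructokinase, and FBP1 and TIGAR act against glycolysis by removing phosphate from fructose 1,6-bisphosphate and fructose 2,6-bisphosphate. PFKFB3, the isozyme with the strongest kinase activity (ENSG00000170525.21, chromosome 10, 6144934 to 6254644), was measured at 78.2, 82.9 and 70.3 CPM with DMSO and 64.6, 57.6 and 64.9 with gilteritinib. MI-3454 gave 82.3, 80.9 and 86.0 CPM and the combination 119, 109 and 116. The combination lay above every other library, at 0.57 ± 0.10 against DMSO, 0.47 ± 0.09 against MI-3454 and 0.89 ± 0.08 against gilteritinib (edgeR adjusted p = 0.000192, 0.00237 and 4.49e-07). With gilteritinib alone PFKFB3 lay below DMSO in all libraries, at -0.31 ± 0.10 (adjusted p = 0.0683), called lower with the replicate block (-0.30 ± 0.08, adjusted p = 0.002). PFKFB4 went the other way: it fell from 34.9 ± 9.35 CPM with DMSO to 20.0 ± 3.00 with gilteritinib, 20.0 ± 2.21 with MI-3454 and 13.7 ± 1.45 with the combination, at -0.82 ± 0.19, -0.81 ± 0.19 and -1.35 ± 0.18. Its DMSO libraries were spread, at 41.7, 38.7 and 24.3 CPM, and the single-agent calls were lost in the MI-3454 comparison without DMSO 1 or MI-3454 2 (adjusted p from 0.0558 to 0.0715) and in the gilteritinib comparison without DMSO 1 or gilteritinib 1 (adjusted p from 0.0549 to 0.0758). PFKFB2 was near the lower limit of measurement, between 1.72 and 4.34 CPM in all libraries, and was called in no comparison.

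FBP1, the gluconeogenic fructose 1,6-bisphosphatase (ENSG00000165140.10, chromosome 9, 94603133 to 94640249), was measured at 15.8, 17.0 and 13.6 CPM with DMSO and 12.7, 11.0 and 11.98 with gilteritinib. With MI-3454 it stood at 15.3, 17.3 and 17.9, and with the combination at 39.4, 36.5 and 32.5. All combination libraries lay above all others, and the log2 rise was 1.23 ± 0.13 against DMSO, 1.11 ± 0.12 against MI-3454 and 1.61 ± 0.11 against gilteritinib (edgeR adjusted p = 7.96e-07, 7.75e-05 and 3.6e-08). With gilteritinib alone FBP1 was at -0.37 ± 0.14 (adjusted p = 0.0968), called lower with the replicate block (-0.37 ± 0.13, adjusted p = 0.0233). TIGAR, a fructose 2,6-bisphosphatase named for its induction by p53, was low: it was measured at 5.81, 5.21 and 7.22 CPM with DMSO and 3.75, 2.43 and 3.19 with gilteritinib. The MI-3454 libraries gave 4.68, 3.08 and 2.39 and the combination libraries 6.68, 4.86 and 7.66. Both single-agent groups lay below DMSO, at -0.93 ± 0.22 with gilteritinib and -0.84 ± 0.27 with MI-3454 (edgeR adjusted p = 0.0158 and 0.0463). The combination overlapped DMSO at 0.07 ± 0.22. TIGAR shares 1711 exon bases with AC008012.1 on the same strand, so its level is uncertain. The TIGAR calls were lost in the gilteritinib comparison without DMSO 3, gilteritinib 2 or gilteritinib 3 (adjusted p from 0.0509 to 0.063) and in the MI-3454 comparison without DMSO 1, DMSO 3, MI-3454 2 or MI-3454 3, with total-count scaling, with the replicate block and without the 4 libraries richest in RN7SL1 (adjusted p from 0.0617 to 0.158).

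Of the 10 genes of the chain between glucose 6-phosphate and pyruvate, 8 fell with the combination and none rose, with a median log2 change of -0.73, while 2 fell with MI-3454 and the same number with gilteritinib. The highest levels per kilobase of exon with DMSO were those of GAPDH at 1266.3 CPM per kb, ENO1 at 665 and TPI1 at 243. GAPDH, which oxidises glyceraldehyde 3-phosphate (ENSG00000111640.15, chromosome 12, 6533927 to 6538374), was measured at 3749.9, 4383 and 3191 CPM with DMSO and 3769, 4449 and 3832 with gilteritinib. Under MI-3454 the values were 4059, 3634 and 5142, against 2705, 2354 and 2133 under the combination. Only the combination lay clear of DMSO, at -0.65 ± 0.13 (edgeR adjusted p = 0.000557), against 0.18 ± 0.16 with MI-3454 and 0.09 ± 0.13 with gilteritinib. GAPDH has 62 annotated pseudogenes named for it, and how the counting placed reads between such copies is not known. ENO1, the main enolase (ENSG00000074800.16, chromosome 1, 8861000 to 8879250), was measured at 3622, 3817 and 3094 CPM with DMSO and 2763, 2938 and 2836 with gilteritinib. MI-3454 gave 2669, 2438 and 2987 CPM and the combination 1732, 1479 and 1372. Its single-agent libraries all lay below DMSO without a call (-0.38 ± 0.13 with MI-3454 and -0.30 ± 0.11 with gilteritinib, adjusted p = 0.0596 and 0.0848), and the combination lay below all of them at -1.20 ± 0.13 (adjusted p = 5.12e-07). The MI-3454 change of ENO1 was called with DESeq2, with total-count scaling, without the low-count filter, in a fit of all 12 libraries, without MI-3454 3 and without the 4 libraries richest in RN7SL1 (adjusted p from 0.00858 to 0.0381). Its gilteritinib change was called with total-count scaling, without DMSO 3 and without those 4 libraries (adjusted p from 0.0277 to 0.0398). In the fit with the replicate block the gilteritinib change of ENO1 was called (-0.30 ± 0.08, adjusted p = 0.00122).

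PGK1, which makes the first ATP of the pathway (ENSG00000102144.15, chromosome X, 77910739 to 78129296), was measured at 890.5, 762 and 687 CPM with DMSO and 688, 625 and 705 with gilteritinib. With MI-3454 it stood at 746, 639 and 709, and with the combination at 419.8, 379 and 353. The combination lay below every other library, at -1.02 ± 0.12 (edgeR adjusted p = 1.99e-06). With gilteritinib PGK1 was at -0.21 ± 0.12 (adjusted p = 0.259), and called lower with the replicate block (-0.21 ± 0.08, adjusted p = 0.0278). GPI, the isomerase after hexokinase, fell from 626 ± 98.5 to 372 ± 42.3 CPM with the combination (-0.75 ± 0.13). TPI1, the triose phosphate isomerase, fell from 657 ± 60.4 to 402 ± 58.4 (-0.71 ± 0.12), and PGAM1, the phosphoglycerate mutase, from 256 ± 11.2 to 177 ± 13.2 (-0.53 ± 0.10). In each of the 3 the combination libraries lay below all DMSO libraries (edgeR adjusted p = 0.000109, 0.000125 and 0.000393). The block called GPI lower with gilteritinib (-0.22 ± 0.08, adjusted p = 0.021).

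Of the chain, ALDOC and ENO2 fell furthest with the combination. ALDOC, the brain-type aldolase (ENSG00000109107.14, chromosome 17, 28573115 to 28577264), was measured at 194, 176 and 125 CPM with DMSO and 86.6, 86.0 and 100.2 with gilteritinib. The MI-3454 libraries gave 96.7, 81.8 and 109 and the combination libraries 7.72, 6.65 and 4.11. Both single-agent groups lay below DMSO, and the combination lay far below both. The log2 changes were -0.86 ± 0.15, -0.79 ± 0.17 and -4.70 ± 0.20 with gilteritinib, MI-3454 and the combination (edgeR adjusted p = 0.00198, 0.00594 and 5.96e-12). The last was a 26.0-fold fall. ENO2, the neuronal enolase, fell from 17.7 ± 1.99 CPM with DMSO to 12.2 ± 1.47 with gilteritinib, 12.4 ± 1.48 with MI-3454 and 2.33 ± 0.628 with the combination, at -0.54 ± 0.15, -0.52 ± 0.16 and -2.89 ± 0.21. The ENO2 calls were lost in the gilteritinib comparison without DMSO 1, gilteritinib 1, gilteritinib 2 or gilteritinib 3 (adjusted p from 0.0537 to 0.105) and in the MI-3454 comparison without DMSO 1, DMSO 2, MI-3454 1 or MI-3454 2, with DESeq2 and with the replicate block (adjusted p from 0.0501 to 0.165). PKM, which encodes the pyruvate kinases of the final step, had means of 1418 ± 155 CPM with DMSO, 1486 ± 26.0 with gilteritinib, 1792 ± 258 with MI-3454 and 1324 ± 172 with the combination. It was called in no comparison with DMSO. ALDOA, the main aldolase of most tissues, was at 14.9 ± 2.91 CPM with DMSO and 14.6 ± 1.15 with the combination and was not called. Per kilobase of exon its DMSO level was 3.82 CPM, against 56.4 for ALDOC. It shares 1657 exon bases with AC093512.2 on the same strand, and how the counting treated shared bases is not given in the sources used here, so its level is uncertain.

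Lactate dehydrogenase and the kinases of pyruvate dehydrogenase also changed. LDHA, which reduces pyruvate to lactate (ENSG00000134333.14, chromosome 11, 18394388 to 18408425), was measured at 1065, 801 and 878 CPM with DMSO and 703, 577 and 693 with gilteritinib. Under MI-3454 the values were 723, 599 and 556, against 264, 251 and 230.4 under the combination. Both single-agent groups lay below DMSO and the combination lay below both, at log2 changes of -0.48 ± 0.13, -0.55 ± 0.15 and -1.88 ± 0.12 (edgeR adjusted p = 0.0306, 0.0201 and 1.68e-09). The last was a 3.68-fold fall. The single-agent calls were lost in the gilteritinib comparison without DMSO 1, DMSO 3, gilteritinib 1, gilteritinib 2 or gilteritinib 3 (adjusted p from 0.0579 to 0.153) and in the MI-3454 comparison without DMSO 1 or MI-3454 2 (adjusted p from 0.079 to 0.115). LDHB, the subunit that favours lactate oxidation, fell with the combination from 19.8 ± 1.43 to 11.9 ± 1.77 CPM (-0.73 ± 0.15, adjusted p = 0.000564), and was called lower with gilteritinib only with the replicate block (-0.31 ± 0.12, adjusted p = 0.0336). LDHB shares 997 exon bases with AC010197.2 on its strand, so its level is uncertain.

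PDK1 and PDK3 encode kinases that switch off pyruvate dehydrogenase, and their genes moved in opposite directions. PDK1, a target of HIF (ENSG00000152256.13, chromosome 2, 172555373 to 172608669), was measured at 44.3, 34.7 and 45.6 CPM with DMSO and 24.9, 23.6 and 28.8 with gilteritinib. MI-3454 gave 30.3, 37.1 and 22.2 CPM and the combination 15.96, 19.5 and 17.2. It fell with gilteritinib (-0.69 ± 0.14, edgeR adjusted p = 0.00511) and with the combination (-1.24 ± 0.14, 1.12e-06). MI-3454 overlapped DMSO at -0.47 ± 0.18 (adjusted p = 0.0971). That change was called without the low-count filter, in a fit of all 12 libraries, without DMSO 2 or MI-3454 2 and without the 4 libraries richest in RN7SL1 (adjusted p from 0.0108 to 0.0415). PDK3 (ENSG00000067992.15, chromosome X, 24465221 to 24541862) was measured at 36.4, 26.8 and 35.999 CPM with DMSO and 35.1, 30.7 and 33.5 with gilteritinib. With MI-3454 it stood at 89.5, 83.3 and 69.7, and with the combination at 90.6, 86.4 and 93.6. MI-3454 and the combination lay above DMSO and gilteritinib without overlap. Their log2 changes against DMSO were 1.29 ± 0.15 and 1.45 ± 0.13 (adjusted p = 7.07e-05 and 4.71e-08), and gilteritinib was at 0.00 ± 0.14. The combination did not differ from MI-3454 past the test (0.16 ± 0.11, adjusted p = 0.265). PDHA1, the catalytic subunit that these kinases phosphorylate, rose with MI-3454 from 84.1 ± 4.39 to 108 ± 4.73 CPM (0.36 ± 0.11, adjusted p = 0.0385), a call lost without DMSO 1, DMSO 3, MI-3454 1, MI-3454 2 or MI-3454 3, without the low-count filter and with the replicate block (adjusted p from 0.0844 to 0.166). With the replicate block PDHA1 was also called higher with gilteritinib (0.21 ± 0.08, adjusted p = 0.0225).

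**Figure D3:**
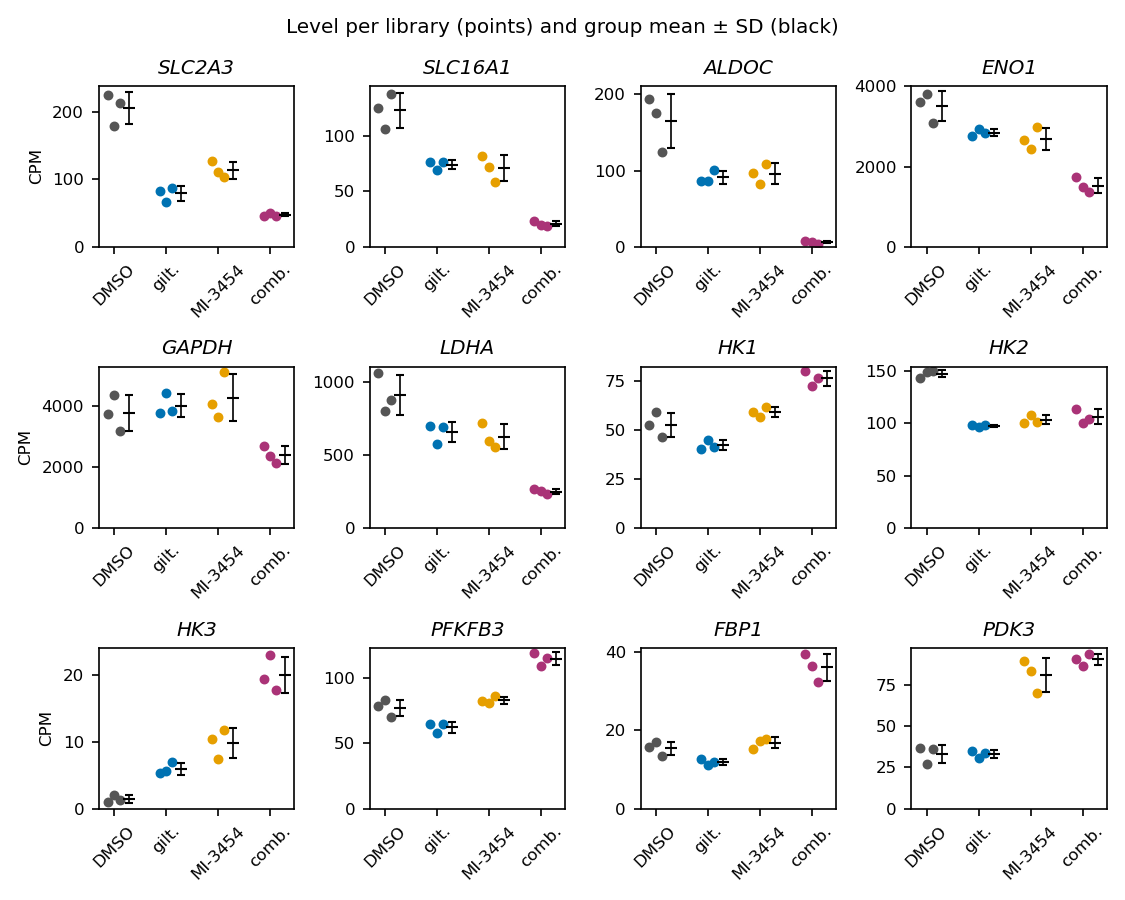
CPM (y axes, from 0) of 12 genes in the 3 libraries of each group (points), with the group mean ± SD in black beside them. SLC2A3, SLC16A1, ALDOC, ENO1, GAPDH and LDHA are lowest with the combination (LDHA 230.4 to 264 CPM), and HK1, HK3, PFKFB3 and FBP1 are highest there (FBP1 32.5 to 39.4 CPM).

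Of the 6 members of the pentose phosphate pathway, TKT and TALDO1 rose and RPIA fell with the combination. As a share of the 6, the rises were near the 29.2% of all tested genes that rose there. The fall was below the 28.4% that fell. TKT, the transketolase that moves carbon pairs between sugars (ENSG00000163931.16, chromosome 3, 53224707 to 53256052), was measured at 585, 695 and 542 CPM with DMSO and 656, 725 and 664 with gilteritinib. The MI-3454 libraries gave 861, 825 and 1045 and the combination libraries 1117, 943 and 922. MI-3454 and the combination lay above DMSO and gilteritinib, at 0.58 ± 0.14 and 0.71 ± 0.12 against DMSO (edgeR adjusted p = 0.0112 and 0.000114). TALDO1, the transaldolase (ENSG00000177156.11, chromosome 11, 747329 to 765024), was measured at 189, 187 and 177 CPM with DMSO and 229, 229 and 226 with gilteritinib. Under MI-3454 the values were 248, 229 and 258, against 269, 244 and 229 under the combination. All treated libraries lay above all DMSO libraries, at 0.31 ± 0.09, 0.41 ± 0.11 and 0.42 ± 0.11 with gilteritinib, MI-3454 and the combination (edgeR adjusted p = 0.0456, 0.0232 and 0.0025). Calls with MI-3454 were lost for TKT without DMSO 1 or DMSO 3 and with the replicate block (adjusted p from 0.0584 to 0.0696) and for TALDO1 without DMSO 1, DMSO 3 or MI-3454 1 and with the replicate block (adjusted p from 0.0835 to 0.118), and with gilteritinib for TALDO1 without DMSO 1, DMSO 3, gilteritinib 1, gilteritinib 2 or gilteritinib 3, with total-count scaling and without the low-count filter (adjusted p from 0.0785 to 0.157). RPIA, the ribose phosphate isomerase, fell with the combination from 39.4 ± 2.29 to 25.7 ± 4.88 CPM (-0.60 ± 0.14, adjusted p = 0.0013). PGLS, PGD and RPE, which encode the lactonase, the second dehydrogenase and the epimerase of the pathway, were called in no comparison with DMSO, with combination log2 changes of -0.16, -0.17 and -0.18. RPE shares 837 exon bases with KANSL1L on the other strand, so its level is uncertain. With gilteritinib and the replicate block, PGD (-0.18 ± 0.07, adjusted p = 0.0452) and RPE (-0.25 ± 0.09, adjusted p = 0.0179) were called lower and PGLS (0.20 ± 0.08, adjusted p = 0.0318) higher. Summed over the 6 genes, levels ran from 1201 to 1433 CPM with DMSO, from 1358 to 1452 with gilteritinib, from 1552 to 1882 with MI-3454 and from 1576 to 1870.4 with the combination, with TKT the largest part.

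Levels per kilobase of exon showed how the isozymes shared each step. Among hexokinases, HK2 held 73.4% ± 2.48 (SD, n = 3) with DMSO and 49.0% ± 1.61 with the combination. HK1 went from 25.2% to 34.0% and HK3 from 1.32% to 17.0%. Single agents lay between, with HK2 at 65.4% with gilteritinib and 57.9% with MI-3454. PFKL held 53.8% ± 0.789 of the phosphofructokinase subunits with DMSO, 65.1% ± 0.840 with gilteritinib, 62.4% ± 1.31 with MI-3454 and 70.6% ± 0.879 with the combination. The rest was nearly all PFKP. PFKFB3 went from 68.1% with DMSO to 88.3% of its family with the combination, and PFKFB4 from 30.3% to 10.5%. PDK1 held 29.5% ± 0.642 of the sum of PDK1 and PDK3 with DMSO, 20.6% ± 1.59 with gilteritinib, 10.9% ± 1.78 with MI-3454 and 6.09% ± 0.789 with the combination. SLC16A1 held 29.7% of the lactate carriers with DMSO and 10.1% with the combination. The DMSO and combination ranges did not overlap for any of these shares. The shares rest on exon lengths from GENCODE 29, and members of a family that are not among the 36 genes are not in the sums.

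**Figure D4:**
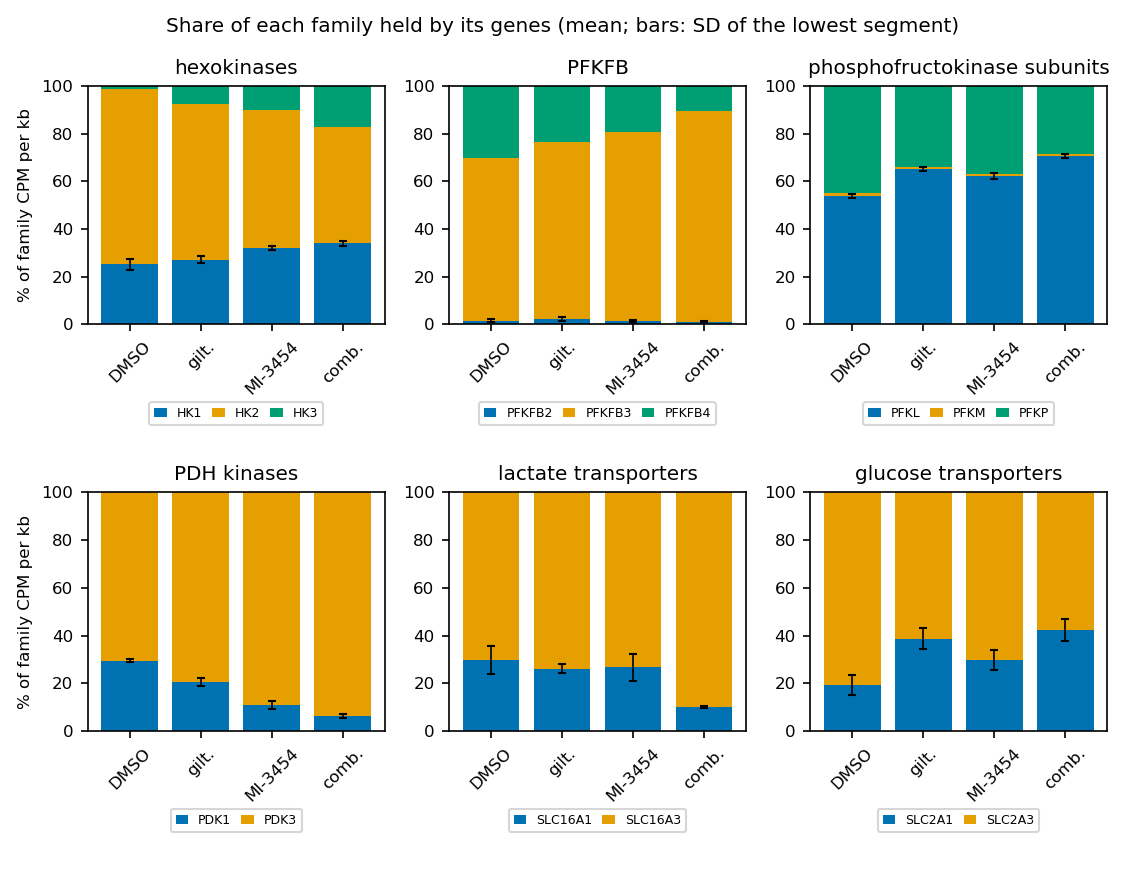
Percent of the summed CPM per kb held by each gene of 6 families (panels) in each group (bars, means of 3 libraries, with the SD of the lowest segment). HK2 shrinks from 73.4% to 49.0% and PDK1 from 29.5% to 6.09% between DMSO and the combination.

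Adding the other agent to either single agent lowered most of the chain. Against MI-3454, 18 members were lower and 5 higher with the combination (15.1% and 14.1% of all tested genes), and against gilteritinib 19 were lower and 7 higher (30.3% and 30.1%). SLC2A1, SLC2A3, SLC16A1, GPI, PFKP, PFKFB4, ALDOC, TPI1, GAPDH, PGK1, PGAM1, ENO1, ENO2, LDHA, LDHB and PDK1 were lower with the combination than in each of the other 3 groups. HK1, HK3, PFKFB3 and FBP1 were higher there than in each. The share of all tested genes with such joint calls, or called with the combination alone, was not computed. The falls against MI-3454 were largest for ALDOC (-3.91 ± 0.18), ENO2 (-2.37 ± 0.22) and SLC16A1 (-1.77 ± 0.14). Against gilteritinib the same genes stood at -3.82 ± 0.15, -2.35 ± 0.20 and -1.84 ± 0.10, and the largest rise was that of HK3 at 1.76 ± 0.15. Of the 10 members that fell with the combination and were called with neither agent, SLC2A1, GPI, TPI1, GAPDH, PGK1, PGAM1, ENO1 and LDHB were also lower than with each agent. PFKL (-0.28 ± 0.12) and RPIA (-0.41 ± 0.15) were not called against MI-3454. PFKL was called there without the 4 libraries richest in RN7SL1 (adjusted p = 0.0222), and RPIA without the low-count filter, in a fit of all 12 libraries and without MI-3454 2 (adjusted p from 0.0126 to 0.0289). With the replicate block GPI, PGK1, ENO1 and LDHB of these 10 were called lower with gilteritinib. TIGAR was higher with the combination than with MI-3454 (0.92 ± 0.27) and gilteritinib (1.00 ± 0.23). Calls against MI-3454 were lost for SLC2A1 without MI-3454 1, MI-3454 3, combination 2 or combination 3, with total-count scaling and with the replicate block (adjusted p from 0.0784 to 0.186), PFKFB4 without MI-3454 1 or combination 2 (adjusted p from 0.0667 to 0.0897), LDHB without MI-3454 1, combination 2 or combination 3 and with total-count scaling (adjusted p from 0.0622 to 0.137) and TIGAR without MI-3454 2, combination 1 or combination 3 and without the 4 libraries richest in RN7SL1 (adjusted p from 0.0525 to 0.1). PKM (-0.43 ± 0.13) and PGD (-0.34 ± 0.10) were also lower than with MI-3454. Both calls were lost without MI-3454 1, combination 2 or combination 3 and with the replicate block, and that of PGD also with total-count scaling (adjusted p from 0.053 to 0.134). Against gilteritinib the call of LDHB was lost without gilteritinib 1, gilteritinib 3 or combination 2 and with total-count scaling (adjusted p from 0.0557 to 0.124). PGLS was lower there (-0.34 ± 0.10). Its call was lost without combination 2 or combination 3, with total-count scaling and in a fit of all 12 libraries (adjusted p from 0.0585 to 0.0661).

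MI-3454 and gilteritinib differed from each other in 25% of the members, against 17.4% of all tested genes. With MI-3454, 8 were higher and 1 lower than with gilteritinib (9.96% and 7.43% of all tested genes). PDK3 stood furthest apart, at 1.28 ± 0.11 (edgeR adjusted p = 1.26e-05), followed by HK3 (0.71 ± 0.21), SLC2A3 (0.51 ± 0.12), FBP1 (0.49 ± 0.14), HK1 (0.48 ± 0.10), TKT (0.41 ± 0.12), PFKFB3 (0.40 ± 0.09) and PGD (0.36 ± 0.11), with PGLS lower (-0.43 ± 0.13). None of the 10 chain genes was called between the agents by edgeR. PDK3 and HK1 alone kept their calls under every setting tried. Calls were lost for SLC2A3 without MI-3454 1 (adjusted p = 0.0691), HK3 without gilteritinib 1, gilteritinib 2, MI-3454 1 or MI-3454 3 and without the 4 libraries richest in RN7SL1 (adjusted p from 0.053 to 0.141), PFKFB3 without gilteritinib 2 (adjusted p = 0.0556) and FBP1 without gilteritinib 1, gilteritinib 2, gilteritinib 3 or MI-3454 2, with DESeq2 and with the replicate block (adjusted p from 0.0571 to 0.103). They were also lost for TKT without gilteritinib 1, gilteritinib 2, gilteritinib 3 or MI-3454 1 and with the replicate block (adjusted p from 0.0521 to 0.161), PGD without gilteritinib 1, gilteritinib 2, gilteritinib 3 or MI-3454 1, without the low-count filter and with the replicate block (adjusted p from 0.0525 to 0.154) and PGLS without gilteritinib 1, gilteritinib 2, gilteritinib 3, MI-3454 1 or MI-3454 2, in a fit of all 12 libraries and with the replicate block (adjusted p from 0.0503 to 0.147).

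The interaction term of a model over all 12 libraries measured how far the log2 change with the combination departed from the sum of the changes with each agent. It was below 0 for 10 members and above 0 for 5 at an adjusted p under 0.05 (8.74% and 6.55% of all tested genes). In 7 of the 10 chain genes it was called below 0: ALDOC stood 3.05 ± 0.26 below the sum and ENO2 1.84 ± 0.26, whereas GAPDH (-0.93 ± 0.20), TPI1 (-0.85 ± 0.17), PGK1 (-0.65 ± 0.16), PGAM1 (-0.57 ± 0.13) and ENO1 (-0.52 ± 0.16) had smaller terms. Of the chain, GPI (-0.51 ± 0.17) and PKM (-0.50 ± 0.17) were also negative but not called (edgeR adjusted p = 0.0611 and 0.064). Both were called without the low-count filter, without combination 1 and without the 4 libraries richest in RN7SL1. GPI was also called without DMSO 2 and PKM without MI-3454 2 (adjusted p from 0.000643 to 0.0382 over these settings). ALDOA was at 0.02 ± 0.31. SLC16A1 (-1.05 ± 0.18), LDHA (-0.86 ± 0.18) and PDHA1 (-0.40 ± 0.12) were the others below the sum. Above the sum were TIGAR (1.84 ± 0.37), FBP1 (1.48 ± 0.18), PFKFB3 (0.77 ± 0.13), HK1 (0.70 ± 0.14) and HK2 (0.64 ± 0.11). For SLC2A3, which fell most with gilteritinib, the term was 0.11 ± 0.17 (edgeR adjusted p = 0.704), and for PDK3 0.15 ± 0.17 (adjusted p = 0.585). Calls were lost for ENO1 without DMSO 1, DMSO 3, gilteritinib 1, gilteritinib 2, gilteritinib 3, MI-3454 1, MI-3454 3, combination 2 or combination 3 and with the replicate block (adjusted p from 0.064 to 0.134) and for PDHA1 without DMSO 1, DMSO 3, gilteritinib 1, gilteritinib 2, gilteritinib 3, MI-3454 1, MI-3454 3, combination 2 or combination 3, with total-count scaling, without the low-count filter and with the replicate block (adjusted p from 0.05 to 0.169).

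**Figure D5:**
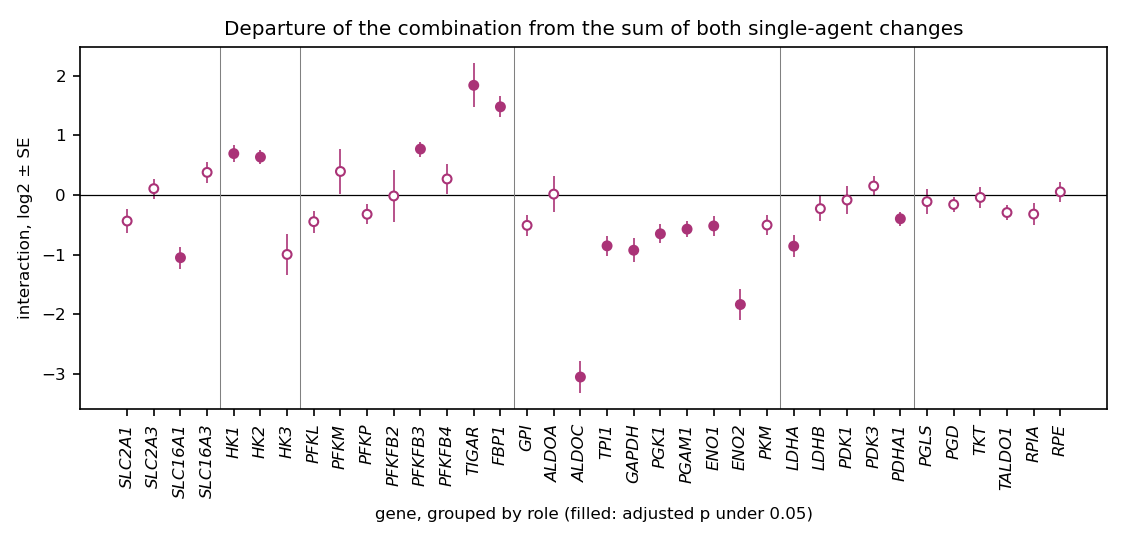
Interaction term in log2 units ± SE (y axis) for the 36 genes (x axis, grouped by role), with filled points for an edgeR adjusted p under 0.05. ALDOC at -3.05 and ENO2 at -1.84 lie lowest and TIGAR at 1.84 and FBP1 at 1.48 highest.

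Many genes known to be induced by hypoxia were also lower with the combination. Of 19 tested hypoxia-inducible genes outside glycolysis, 12 fell and 2 rose with the combination (median -1.04), where 28.4% and 29.2% of all tested genes did. With gilteritinib 8 fell and 0 rose (median -0.43), against 8.18% and 6.92% of all genes. With MI-3454 4 fell and 1 rose (median -0.06), against 8.95% and 10.1%. VEGFA, the endothelial growth factor, was measured at 394, 427 and 369 CPM with DMSO and 99.5, 102 and 116 with gilteritinib. MI-3454 gave 175, 185 and 187 CPM and the combination 70.5, 74.8 and 73.4. No 2 of these groups overlapped. STC2, a secreted glycoprotein, had 1152 counts over the DMSO libraries and 2 over the combination libraries, a ratio of 523.6 with a 95% exact counting interval from 144.6 to 4328. CA9, the membrane carbonic anhydrase, had 78 counts with DMSO and 0 with the combination. It was at least 23.6-fold lower with the combination, counting its 3 libraries together as holding 3 counts, and fell by 2.91 with MI-3454 and 1.66 with gilteritinib. MIR210HG, the host transcript of a hypoxia microRNA, fell by 4.67 ± 0.46 with the combination. HIF1A itself was not called, at means of 43.5 ± 3.997 CPM with DMSO and 45.9 ± 0.882 with the combination (0.08 ± 0.11). The HIF1A protein, known to be controlled mainly by degradation, was not measured. The part of HIF in these changes was not tested.

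Among 19 regulators of HIF, MYC and the glucose sensor MondoA, 6 fell and 4 rose with the combination, shares near or below the 28.4% and 29.2% of all tested genes. In this list 3 fell and 0 rose with gilteritinib (8.18% and 6.92% of all genes) and 3 fell and 2 rose with MI-3454 (8.95% and 10.1%). MYC was measured at 654, 798 and 648 CPM with DMSO and 436, 499.9 and 449 with gilteritinib. With MI-3454 it stood at 459.6, 452 and 523, and with the combination at 205, 179 and 160.5. Its log2 changes were -0.60 ± 0.12 with gilteritinib, -0.55 ± 0.13 with MI-3454 and -1.95 ± 0.13 with the combination. ARRDC4, a MondoA target that limits glucose uptake, fell by 2.59 ± 0.11 with gilteritinib, 1.87 ± 0.14 with MI-3454 and 2.15 ± 0.11 with the combination. EPAS1, which encodes the second HIF alpha subunit, fell by 1.44 ± 0.30 with gilteritinib and 1.00 ± 0.26 with the combination. EGLN1, the oxygen-sensing prolyl hydroxylase, fell by 0.73 ± 0.16 with MI-3454 and 0.59 ± 0.14 with the combination. ARNT, the partner of HIF alpha, rose by 0.69 ± 0.11 with MI-3454 and 0.98 ± 0.10 with the combination.

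Of 20 other tested genes of glucose transport and glycolysis, 5 fell and 6 rose with the combination (median 0.10), shares near the 28.4% and 29.2% of all tested genes. With gilteritinib 2 fell and 4 rose (8.18% and 6.92% of all genes), and with MI-3454 3 fell and 3 rose (8.95% and 10.1%). SLC2A6, a lysosomal hexose carrier of myeloid cells, rose by 2.13 ± 0.19 with MI-3454 and 2.97 ± 0.15 with the combination, and SLC2A11 rose by 1.17 ± 0.20 with the combination. SLC2A5, the fructose carrier, fell by 1.24 ± 0.13 with MI-3454, 1.34 ± 0.12 with gilteritinib and 1.60 ± 0.13 with the combination. SLC2A14, a near copy of SLC2A3 whose reads may be hard to tell from it, fell by 1.33 ± 0.28 with MI-3454. SLC2A8 rose by 1.06 ± 0.22 with gilteritinib and 0.68 ± 0.22 with the combination. GALM, the aldose epimerase, fell by 1.21 ± 0.12 with MI-3454, 0.96 ± 0.11 with gilteritinib and 1.07 ± 0.12 with the combination.

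Of 12 tested genes of pyruvate entry into mitochondria, 7 fell and 3 rose with the combination (median -0.35), against 28.4% and 29.2% of all tested genes. With gilteritinib and with MI-3454 alike 2 fell and 1 rose, against 8.18% and 6.92%, and 8.95% and 10.1%, of all genes. The phosphatases that switch pyruvate dehydrogenase on also moved in opposite directions: PDP2 fell by 0.86 ± 0.11, 0.94 ± 0.12 and 1.47 ± 0.11 with gilteritinib, MI-3454 and the combination. PDP1 rose by 0.75 ± 0.13 with MI-3454 and 1.28 ± 0.10 with the combination. PCK2, the mitochondrial phosphoenolpyruvate carboxykinase, fell by 0.83 ± 0.10, 0.68 ± 0.13 and 1.89 ± 0.11. PDK2 rose by 0.68 ± 0.14 with gilteritinib and 0.59 ± 0.15 with the combination. Of 17 glycogen and hexosamine genes, 7 fell and 5 rose with the combination (median -0.23), against 28.4% and 29.2% of all tested genes, so the rises were at the background. With gilteritinib 3 fell and 0 rose (8.18% and 6.92% of all genes), and with MI-3454 0 fell and 2 rose (8.95% and 10.1%). GBE1, the glycogen branching enzyme and also on the hypoxia list, fell by 2.16 ± 0.15 with the combination. UAP1 also fell there, and GNPNAT1 fell by 1.47 ± 0.20, both in the synthesis of UDP-N-acetylglucosamine. With gilteritinib OGT fell by 0.73 ± 0.12, GBE1 by 0.64 ± 0.17 and UAP1 by 0.47 ± 0.12. PHKB rose by 0.68 ± 0.14 with MI-3454 and 1.00 ± 0.12 with the combination, and GNPDA1 by 0.57 ± 0.12 and 0.55 ± 0.11.

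Of 8 other tested genes of the pentose phosphate pathway and of ribose phosphate use, 4 fell and 1 rose with the combination (median -0.40). These 5 calls compare with 57.5% of all tested genes called in either direction, 28.4% lower and 29.2% higher. With gilteritinib 1 fell and with MI-3454 3 fell, where 8.18% and 8.95% of all genes did. The ribose phosphate pyrophosphokinases PRPS1 and PRPS2, which start nucleotide synthesis, fell by 0.76 ± 0.12 and 0.59 ± 0.12 with the combination, where PRPSAP1 rose by 0.49 ± 0.12. With MI-3454 RBKS, the ribokinase, fell by 0.53 ± 0.14, H6PD by 0.50 ± 0.12 and PRPSAP2 by 0.48 ± 0.15. H6PD also fell with the combination (-0.34 ± 0.11), and PRPSAP2 with gilteritinib (-0.47 ± 0.12) and the combination (-0.46 ± 0.13).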

How the data were processed

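RNA from 12 MOLM-13 cultures was measured as ribosome-depleted total RNA, per the labels' protocols. Each library has 1 deposited table of raw read counts, whole numbers that were not normalized. GRCh38, STAR 2.7.1a, cutadapt 2.1, DESeq2 and HTSeq 0.11.2 are listed, without their roles, in the submitters' processing notes. No annotation release, strand setting or rule for reads with several positions is given in the sources used here, so genes that share bases with a neighbour or a pseudogene are uncertain. Groups follow the sample titles, because the compound's name ends in another number in the treatment label of some MI-3454 and combination libraries. Symbols were joined on the Ensembl identifier (60295 of 60668 genes), and positions and exon lengths came from GENCODE 29 on GRCh38.

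Counts were analysed with edgeR 4.0.16 in R 4.3.3 (limma 3.58.1). Genes passing filterByExpr over the 12 libraries were tested (13972 of 30849 with at least 1 count). Pairs of groups were fitted separately by quasi-likelihood, with TMM over the 6 libraries involved, and the interaction was fitted to all 12. Genes were called at a Benjamini-Hochberg adjusted p under 0.05 over all tested genes; SE is the log2 change divided by the root of F. CPM used TMM over 12 libraries. The scripts were tested on simulated counts with known changes, where fewer of the small changes were recovered in the single-agent comparisons and the interaction than in the combination comparison.

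Deviations from the group means of same-numbered gilteritinib and DMSO libraries correlated at 0.14, 0.39 and 0.11 across genes. The number was therefore used as a block in an alternative fit, while the main calls came from the fit without a block. Pairs of unlike number correlated from -0.30 to 0.21. Gilteritinib 1 correlated more with DMSO 3 (0.21) than with DMSO 1 (0.14). Gilteritinib 3 correlated nearly as much with DMSO 1 (0.097) as with DMSO 3 (0.11). Gilteritinib 2 and DMSO 2, at 0.39, were also the libraries highest in RN7SL1 of their groups. The pairing, and with it the calls added by the block, is uncertain. In the other comparisons at least 1 same-numbered pair correlated under 0.1.

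The 36 genes, the other lists and the alternatives were chosen with earlier results of these data known. All 36 genes may be named; from each other list, up to 3 called genes with the largest log2 change per comparison with DMSO, plus MYC and HIF1A. Alternatives were DESeq2 1.42.0, total-count scaling, no low-count filter, a single fit, a replicate block, leaving out each library, and leaving out the library highest in RN7SL1 of each group. Intervals and floors cover counting error only.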

Additional observations from a re-analysis of the deposited data

Results flagged for a closer look

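The effect of gilteritinib on 15 of the 36 genes differed between cells without and with MI-3454, by the interaction term of the model over 12 libraries (edgeR adjusted p under 0.05), where 15.3% of all tested genes did. With MI-3454 the effect was more negative by 3.05 log2 units for ALDOC (term -3.05). The terms were -1.84 for ENO2, -1.05 for SLC16A1, -0.93 for GAPDH, -0.86 for LDHA, -0.85 for TPI1, -0.65 for PGK1, -0.57 for PGAM1, -0.52 for ENO1 and -0.40 for PDHA1. The calls of ENO1 and PDHA1 were lost under other settings, at adjusted p from 0.064 to 0.134 and from 0.05 to 0.169. Terms were positive for TIGAR (1.84), FBP1 (1.48), PFKFB3 (0.77), HK1 (0.70) and HK2 (0.64). For FBP1, gilteritinib gave -0.37 ± 0.14 without MI-3454 and 1.11 ± 0.12 with it. For TIGAR the corresponding values were -0.93 ± 0.22 and 0.92 ± 0.27. For GAPDH they were 0.09 ± 0.13 and -0.83 ± 0.14.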

How the results depend on the processing

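No named value changed direction with a call under any alternative. With the replicate block, MI-3454 against DMSO had 2 members higher and 1678 genes called; gilteritinib against DMSO had 4 members higher, 21 lower and 4928 genes called; MI-3454 against gilteritinib had 5 members higher and 0 lower. The block changed the members' counts by 1.5 times or less in the other comparisons, whose numbers do not pair the libraries. Gilteritinib against DMSO had 1 member higher with total-count scaling and 1 without the low-count filter. MI-3454 against gilteritinib had 2 members lower without that filter and 0 in a fit of all 12 libraries. Without the 4 libraries highest in RN7SL1, gilteritinib against DMSO had 5 members higher and 4250 genes called, MI-3454 against gilteritinib 4 lower and 5133 genes called, and the interaction 16 lower and 3478 genes called.

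Leaving out 1 library at a time gave, for MI-3454 against DMSO, 2 to 5 members higher and 6 to 11 lower; for gilteritinib against DMSO, 1 to 3 higher, 6 to 12 lower and 1243 to 3985 genes called; for the combination against MI-3454, 2456 to 5074 genes called; for MI-3454 against gilteritinib, 3 to 9 higher, 0 to 4 lower and 1588 to 4690 genes called; and for the interaction, 1305 to 2698 genes called. Where an arm kept 2 libraries the spread was pooled over those left. The cause of these shifts was not tested. Total-count scaling raised the median log2 change of all genes to 0.10 for the combination against DMSO, 0.13 against gilteritinib and 0.11 for the interaction, and no member with a call changed direction. Some uncalled values near 0 changed sign, such as ALDOA for the combination against DMSO (0.07) and PDHA1 for the combination against gilteritinib (0.09). Depth limits PFKFB2, PFKM, TIGAR and, with DMSO, HK3, which had few counts.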
